A study of Mus musculus with 77 samples.

Results

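The 5 genes described here, Terb1, Terb2, Majin, Sun1 and Kash5, encode the proteins that fasten chromosome ends to the nuclear envelope in meiosis. They were taken by name, with earlier results of these data known, so shares called beside those of all genes are a description and no test of the set. All are measured by 1 probe set each, and they are 5 of the 19938 genes tested. In early meiotic prophase TERB1, TERB2 and MAJIN form a complex that joins the telomere to the inner nuclear membrane. There SUN1 spans the membrane and binds KASH5 in the outer membrane, and KASH5 recruits the dynein motor of the cytoplasm. The motor moves the attached telomeres along the envelope while homologous chromosomes find each other and pair, and mice lacking these proteins fail in meiosis.

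RNA was measured on 77 microarrays from testes of neonatal mice that carry RiboTag, an allele from which ribosomes become epitope-tagged in cells where Cre is active. Stra8-cre (FVB/N mice) and Ngn3-cre (C57BL/6 mice) tag germ cell ribosomes, and Amh-cre (FVB/N mice) tags those of Sertoli cells, the somatic cells that support the germ line. All animals received BDAD, which blocks the synthesis of retinoic acid (RA), for 9 days. They were then killed (time 0) or injected with RA and killed later, so that germ cells across the testis advance into differentiation and meiosis in step. IP RNA is the RNA recovered with tagged ribosomes, and total RNA comes from the whole testis. Stra8-cre mice gave 16 IP and 23 total arrays and Amh-cre mice 16 IP and 14 total arrays, labelled from 0 over 4h, 12h and 24h to 48h, then 4d, 6d or 8d (Amh total at 4h was not analysed here). Ngn3-cre mice gave 4 IP and 4 total arrays, at 0 and 4h. Of the 35 groups by line, fraction and time, 31 held 2 arrays, 1 held 3 (Stra8 total 4h) and 3 held 4 (Stra8 total 0, 24h and 48h).

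After time 0, no array came from mice injected with vehicle or left uninjected. Effects of RA, of injection, of age and of BDAD wearing off therefore cannot be told apart in any difference from time 0. In total RNA, more cells of a type and more RNA per cell cannot be told apart either. Values are the authors' RMA intensity on a linear scale, differences are log2 differences ± the standard error of the limma fit, and calls required a Benjamini-Hochberg adjusted p below 0.05 over all genes together with a change of 2-fold or more. The labels do not state that arrays of a group stem from separate animals, and p-values therefore reflect only how far these samples spread, which may be technical. Levels of different genes come from different probes and were not compared with one another.

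The fractions carried the markers of their labelled cells. Over the 10 germ cell markers (among them Ddx4, Dazl and Sall4) the mean log2 intensity at time 0 was 12.10 to 12.18 on the Stra8 IP arrays and 8.72 to 8.87 on the Amh IP arrays. Over the 10 Sertoli cell markers (among them Sox9, Wt1 and Amh) it was 12.43 to 12.46 on the Amh IP arrays at time 0 and 9.59 to 10.24 on the Stra8 IP arrays. Some arrays went against their labels. Rarb, a direct RA target, was 368, 126 and 127 on the 3 Stra8 total arrays labelled 4h, against 131.5 to 160.2 at time 0, and its last 2 arrays also stood apart in Vnn1 (489.6 and 409, against 1040 to 2867 on the other Stra8 total arrays). Rarb was 469.7 and 451 on the Amh total arrays labelled 4d and 382 and 378 on the Amh IP arrays labelled 4d, but 145 and 143 on the Amh IP arrays labelled 4h. Means over times are given with these arrays, and where stated also without them, for some or all of the genes. The first Stra8 IP array labelled 4d stood apart in markers of other cell types: the 10 Sertoli cell markers averaged 10.94 on it and 9.98 on the second, the 4 macrophage markers 9.09 and 7.73, and the germ cell markers 11.69 and 11.95.

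Promoter sequences are shown because 4 of the 5 genes (Terb1, Terb2, Majin and Kash5) rose by more than 2-fold in the same interval of the course. Of these 4, only Terb1 and Kash5 had a listed start, so the 4 starts could not be compared as a set. RefSeq's promoter table (build GRCm38.p6, from 250 bases before to 50 bases after the annotated start) held 3 of the 5 genes: Terb1, Kash5 and Sun1, with 2 starts for Sun1. The window of Terb1 is chr8:104509838-104510137 (minus strand), that of Kash5 is chr7:45204843-45205142 (minus strand) and that of the first Sun1 start is chr5:139200387-139200686 (plus strand). Each is printed 5′ to 3′ on the gene's strand, with a motif match in capitals.
Terb1 promoter: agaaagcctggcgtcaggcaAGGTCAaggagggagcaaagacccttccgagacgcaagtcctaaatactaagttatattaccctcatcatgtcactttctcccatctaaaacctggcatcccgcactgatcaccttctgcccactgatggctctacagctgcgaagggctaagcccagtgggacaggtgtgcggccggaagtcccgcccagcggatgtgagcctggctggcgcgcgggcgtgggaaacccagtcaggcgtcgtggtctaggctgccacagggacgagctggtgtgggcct
Kash5 promoter: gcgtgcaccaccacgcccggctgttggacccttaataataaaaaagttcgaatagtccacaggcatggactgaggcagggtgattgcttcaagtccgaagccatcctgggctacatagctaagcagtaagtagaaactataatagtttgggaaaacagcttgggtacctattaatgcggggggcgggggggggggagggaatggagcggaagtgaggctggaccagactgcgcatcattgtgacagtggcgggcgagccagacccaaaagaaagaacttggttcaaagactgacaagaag
Sun1 promoter: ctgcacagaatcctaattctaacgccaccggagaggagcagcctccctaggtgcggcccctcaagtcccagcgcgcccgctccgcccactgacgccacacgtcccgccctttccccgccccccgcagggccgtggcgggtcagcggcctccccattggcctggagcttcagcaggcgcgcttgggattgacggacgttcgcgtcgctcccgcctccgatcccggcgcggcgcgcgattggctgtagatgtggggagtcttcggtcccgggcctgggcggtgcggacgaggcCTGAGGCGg

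The 4 motifs searched on both strands were CNCCTCAG (described for the meiotic activator STRA8), the E-box CACGTG, the E2F motif TTCCCGC and the nuclear receptor half-site AGGTCA, to which RA receptors bind. The Terb1 window held AGGTCA once, starting 230 bases before the annotated start, and this motif was present in 16.3% of the 32851 promoters of the table. The first Sun1 window held the reverse strand of CNCCTCAG, as CTGAGGCG, starting 41 bases after the start, a motif that 7.94% of promoters hold. The Kash5 window held none of the 4 motifs. CACGTG and TTCCCGC were in 7.15% and 4.6% of all promoters and in none of the windows printed. The windows also differed in base composition. The first Sun1 window was 71.3% GC with 36 CpG sites, that of Terb1 59.3% with 16 and that of Kash5 52.3% with 11, beside medians of 52.7% and 7 over all promoters. The second Sun1 start (chr5:139214908-139215207, plus strand, not printed) was 45.3% GC with 4 CpG sites and held no match.

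In germ cell IP RNA the tethering genes rose mainly after 4d. Terb1, Terb2, Majin and Kash5 were all called higher at 6d and again at 8d, 4 of the 5 genes at each time, where 3.71% of all genes were called higher at 6d and 4.38% at 8d. Sun1 rose by less than 2-fold. For each of the 5 genes, the 4 arrays of 6d and 8d all lay above the 12 arrays of 0 to 4d.

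Terb1, the member that contacts the telomere, had the largest rise of the 5 by 8d. Its Stra8 IP intensity was 219.6 and 155 at time 0, 158 and 171 at 4h, 249.8 and 261 at 12h, 339.7 and 285 at 24h, 392 and 283 at 48h, then 229 and 326 at 4d. It then reached 1034 and 974 at 6d and 2541 and 2346 at 8d. The 12 arrays up to 4d spanned 155 to 391.7, those of 6d lay above all of them and those of 8d above 6d. Against time 0 the difference was 2.44 ± 0.21 at 6d (5.44-fold, limma adjusted p = 1.28e-13) and 3.73 ± 0.21 at 8d (13.2-fold, adjusted p = 3.77e-20). A smaller difference was already past the adjusted threshold at 24h (0.75 ± 0.21, adjusted p = 0.0158), 48h (0.85, adjusted p = 0.00309) and 4d (0.57, adjusted p = 0.0392), each below 2-fold. Of the 5 genes at the 5 times from 4h to 4d, none was called, where 0.231% of all genes were called higher at 4h, 0.14% at 12h, 0.211% at 24h, 0.341% at 48h and 0.848% at 4d. These early values of Terb1 rest partly on time 0, whose arrays differed: without its first array the 24h and 48h differences were 1.01 and 1.11, past 2-fold. The lowest values over the alternatives were 0.50 at 24h, 0.60 at 48h and 0.31 at 4d, and the highest at 4d was 0.82. Leaving out the second 48h array also put the 48h difference past 2-fold (1.09).

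Terb2, the partner that links TERB1 to MAJIN, was at 271 and 200.2 at time 0 and 279.7 and 323 at 4d in Stra8 IP RNA, then at 1051 and 1095 at 6d and 1415 and 1685 at 8d. Its difference from time 0 was 2.20 ± 0.25 at 6d (4.61-fold, limma adjusted p = 6.84e-10) and 2.73 ± 0.25 at 8d (6.63-fold, adjusted p = 9.85e-13). Between 0 and 4d its 12 arrays ranged from 200.2 to 339.9, with the 2 highest at 12h, and no difference from time 0 passed the test there.

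Majin, the transmembrane member that anchors the complex in the inner nuclear membrane, was at 273 and 178 at time 0 and 259 and 259.8 at 4d. It was at 1355 and 1459 at 6d and at 1511 and 1399 at 8d, so that the arrays of these 2 times overlapped. The rise was 2.67 ± 0.23 by 6d (6.37-fold, limma adjusted p = 2.05e-13) and 2.72 ± 0.23 by 8d (6.59-fold, adjusted p = 5.41e-14). Before that, its highest values were 397 and 329.7 at 12h, a difference that was past 2-fold (1.02) only without the first array of time 0. The lowest value of this difference over the alternatives was 0.41.

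Kash5, the outer membrane adaptor for dynein, had the narrowest early range, from 194 to 249.3 over the 12 arrays of 0 to 4d. It was at 496 and 508 at 6d and at 796 and 926 at 8d. The difference from time 0 was 1.25 ± 0.14 at 6d (2.38-fold, limma adjusted p = 7.91e-10) and 2.03 ± 0.14 at 8d (4.08-fold, adjusted p = 2.3e-16).

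Sun1, the inner membrane protein that KASH5 binds and a component of the envelope in somatic cells too, was well measured throughout. It was at 2206 and 2118 at time 0, at 1728 and 1825 at 48h, at 3687 and 3694 at 6d and at 3946 and 3816 at 8d. The 6d and 8d arrays lay clear of the others, yet the difference stayed below 2-fold, at 0.77 ± 0.13 at 6d (limma adjusted p = 2.49e-06) and 0.84 ± 0.13 at 8d (1.80-fold, adjusted p = 3.23e-07). The 95% interval of the 8d difference ran from 0.59 to 1.10 and so included 2-fold (1).

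**Figure D1:**
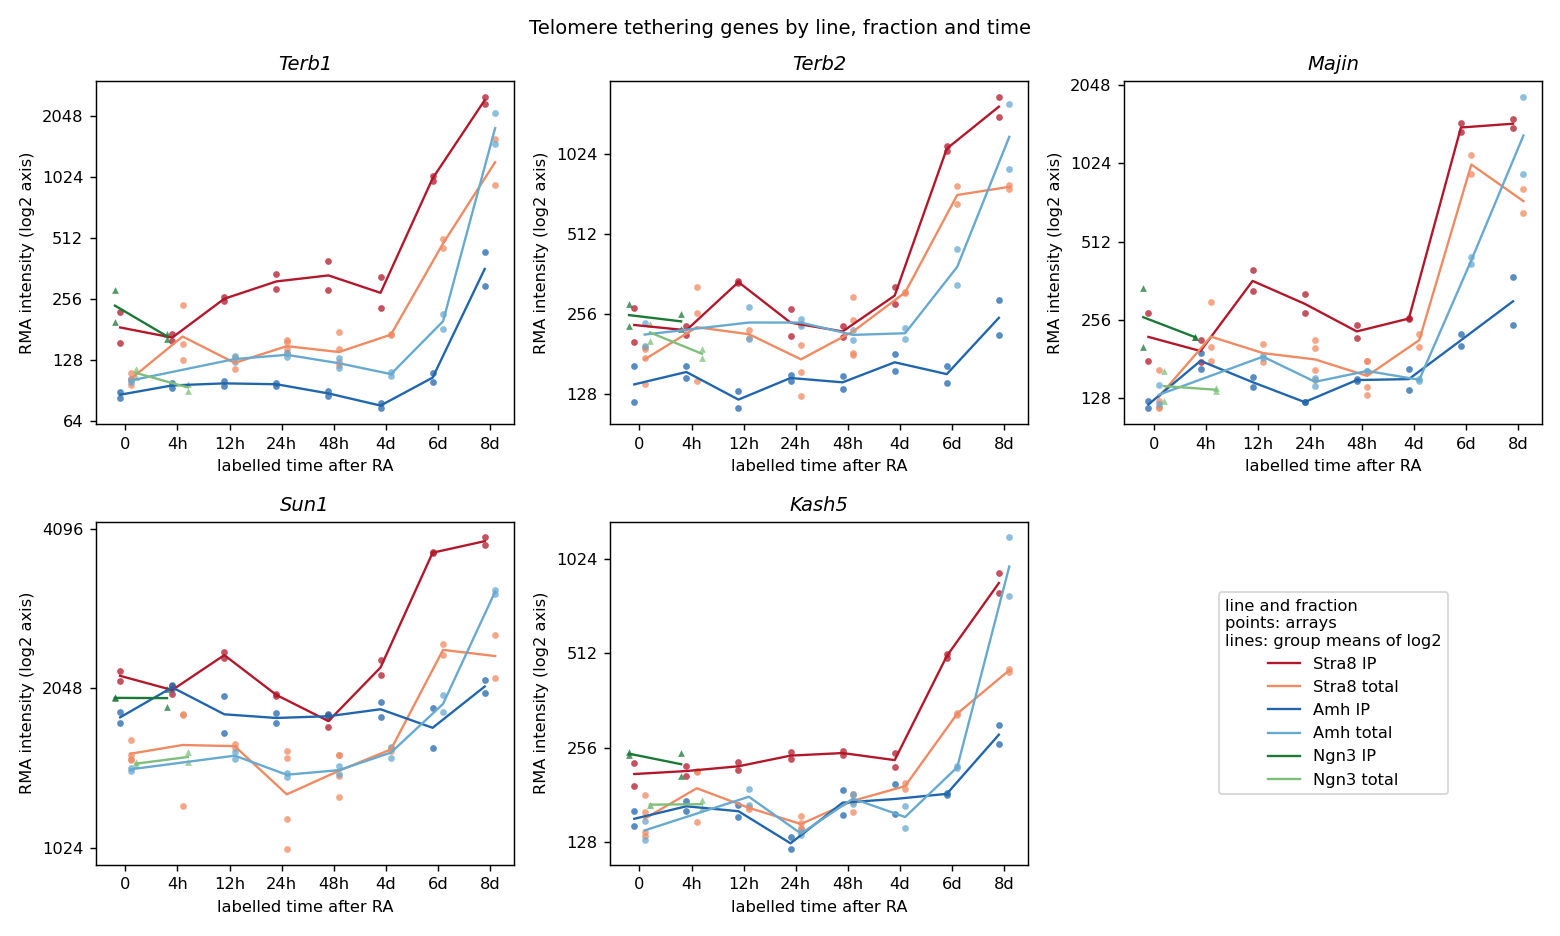
RMA intensity (log2 axis) of the 5 tethering genes against labelled time after RA, by line and fraction; points are arrays and lines join group means of log2 values. In Stra8 IP RNA Terb1 was at 974 to 2541 on the 4 arrays of 6d and 8d and at no more than 391.7 before. On the Amh IP arrays Terb1, Terb2, Majin and Kash5 stayed low until 8d, while Sun1 was at 1581 to 2073 from 0 to 6d.

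The genes differed in how much of the rise came before 6d. From 4d to 6d the step in Stra8 IP RNA was 1.88 ± 0.21 for Terb1, 1.84 for Terb2, 2.44 for Majin, 1.10 for Kash5 and 0.72 for Sun1, and the first 4 were called (limma adjusted p at most 9.4e-08), where 2.29% of genes were called higher. Without the first 4d array these steps were 1.62 for Terb1, 1.73 for Terb2, 2.44 for Majin, 1.17 for Kash5 and 0.67 for Sun1, with the same 4 called. From 6d to 8d only Terb1 was called, at 1.28 ± 0.21 (adjusted p = 4.23e-06), where 1.26% of genes were called higher. Kash5 moved by 0.78 ± 0.14 over that step (adjusted p = 5.1e-05, below 2-fold), Terb2 by 0.53 ± 0.25 (adjusted p = 0.146), Sun1 by 0.07 and Majin by 0.05 ± 0.23 (adjusted p = 0.917, 95% interval -0.41 to 0.51). On the log2 scale, Majin had thus covered 98.2% of its 8d difference by 6d, Sun1 91.4%, Terb2 80.8%, Terb1 65.6% and Kash5 61.8%. Tested as a difference between the steps, the later one was smaller for Majin by 2.39 ± 0.40 (adjusted p = 7.23e-06) and for Terb2 by 1.31 ± 0.44 (adjusted p = 0.0219), both called, where 6.61% of genes were called in that direction. The call of Terb2 was lost without the first 4d array, the one that stood apart (-1.21, adjusted p = 0.0675), without the first (-1.37, adjusted p = 0.1) or second 6d array (-1.25, adjusted p = 0.141), and without the first 8d array (-1.19, adjusted p = 0.0723). Majin stayed called without any 1 of these arrays. For Sun1 it was smaller by 0.65 (adjusted p = 0.0253, below 2-fold; adjusted p = 0.0717 without that first 4d array), and for Terb1 (-0.59, adjusted p = 0.242) and Kash5 (-0.33, adjusted p = 0.376) no difference between the steps passed the test.

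Marker genes of the cell types were followed on the same arrays. Over the 10 germ cell markers the mean log2 intensity on the Stra8 IP arrays went from 12.10 to 12.18 at time 0 to 11.91 to 11.94 at 6d and 11.74 to 11.75 at 8d, and 0 of the 10 were called at either time (median -0.37 at 8d, all genes 0.00). The 10 Sertoli cell markers were at 9.59 to 10.24 at time 0, 9.98 to 10.94 at 4d, 8.77 to 9.07 at 6d and 9.17 to 9.24 at 8d. Of these 10, 5 were called lower at 6d and 2 at 8d (Amh and Rhox8), with none higher. At 4d 1 of the 10 and 2 of 4 macrophage markers were called higher. Of 4 Leydig cell markers 1 was called lower at 6d (median -0.88) and 1 at 8d (-0.90), and of 4 endothelial markers 2 at 6d (median -0.91) and 2 at 8d (-1.11). On the Stra8 total arrays, where the tethering genes rose too, the germ cell markers were at 10.31 to 10.52 at time 0, 10.93 to 10.98 at 6d and 10.76 to 10.93 at 8d. The Sertoli markers were there at 11.81 to 11.93 at time 0, 11.64 to 11.67 at 6d and 11.51 to 11.67 at 8d. The part of these shifts in the rise was not tested.

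Whole testis RNA of the Stra8 line showed the rise as well. Terb1 was at 96.3 to 110.1 on the 4 Stra8 total arrays of time 0, at 504 and 455 at 6d and at 1563 and 931 at 8d. That made 2.22 ± 0.18 at 6d and 3.56 ± 0.18 at 8d (11.8-fold, limma adjusted p = 5.77e-22). Majin, at 117 to 164 at time 0, reached 1106 and 929 at 6d (2.97 ± 0.20, adjusted p = 2.77e-16) and was at 817 and 658 at 8d (2.50). For Majin the 6d arrays lay above the 8d arrays, but that step of -0.47 ± 0.23 did not pass the test (adjusted p = 0.144). Terb2 was higher by 2.06 at 6d and 2.16 at 8d, Kash5 by 1.11 and 1.58, and Sun1 by 0.65 and 0.61. Terb1, Terb2, Majin and Kash5 were called at both times, where 2.76% of all genes were called higher at 6d and 3.38% at 8d. In total RNA, Terb1 (0.73, adjusted p = 0.00278), Terb2 (0.84, adjusted p = 0.00491), Majin (0.72, adjusted p = 0.00735) and Kash5 (0.35, adjusted p = 0.0472) were also past the adjusted threshold at 4d. All 4 were below 2-fold and none was called, where 0.632% of genes were called higher.

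No difference in the size of the rise between the fractions of the Stra8 line passed the test. The 8d change in IP RNA less that in total RNA was 0.17 ± 0.27 for Terb1, 0.57 ± 0.33 for Terb2, 0.22 ± 0.30 for Majin, 0.23 ± 0.17 for Sun1 and 0.45 ± 0.19 for Kash5. Adjusted p in limma ran from 0.11 to 0.791, where 1.12% of genes were called in the direction of a larger IP change. The intervals still allowed a gap of up to 1.24 for Terb2 and 0.83 for Kash5, so equal changes were not shown.

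Recovery by the germ cell tag was positive for all 5 genes and below 2-fold. As a mean over the 8 times, Stra8 IP less total RNA was 0.87 ± 0.07 for Terb1 (1.83-fold, limma adjusted p = 2.01e-16), 0.38 ± 0.08 for Terb2, 0.56 ± 0.08 for Majin, 0.52 ± 0.04 for Sun1 and 0.52 ± 0.05 for Kash5 (adjusted p at most 6.79e-05). None was called, where 3.84% of genes were called higher in IP RNA, and 8 of the 10 germ cell markers were. By time, Terb1 was called at 12h (1.05), 24h (1.06), 48h (1.26), 6d (1.07) and 8d (1.02), where 6.86%, 7.5%, 4.92%, 2.66% and 3.02% of genes were called higher in that order, and Terb2 at 8d (1.00). At 4h, the group with arrays that went against their label, the difference was -0.02 for Terb1, -0.04 for Terb2 and -0.18 for Majin. Without that time the means over the other 7 times were 1.00 for Terb1, 0.44 for Terb2, 0.67 for Majin, 0.55 for Sun1 and 0.57 for Kash5, and again none was called. The change in this recovery from the times up to 48h to the times from 4d did not pass the test for any of the 5 (differences of 0.02 to 0.21, adjusted p from 0.258 to 0.943). This change is given only with the 4h arrays included.

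In the second germ cell line, Terb1, Majin, Kash5 and Sun1 were also higher in IP than in total RNA, on average by less than 2-fold. Terb1 was at 284 and 197 in Ngn3 IP RNA at time 0, against 115 and 105 in total RNA, and at 162 and 172 against 97.0 and 89.7 at 4h. Averaged over both times, IP less total RNA was 0.97 ± 0.15 for Terb1 (limma adjusted p = 9.22e-08), 0.77 ± 0.16 for Majin, 0.48 ± 0.10 for Kash5, 0.39 ± 0.09 for Sun1 and 0.31 ± 0.18 for Terb2 (adjusted p = 0.141). None was called, where 6.18% of genes were called higher. Terb1 lay so near to 2-fold that it was called after median centring (1.01), without the first Ngn3 total array of time 0 (1.00) and without the second Ngn3 IP array of time 0 (1.10). At 4h against time 0, no tethering gene passed the test in Ngn3 IP RNA (differences of -0.50 to 0.00, adjusted p from 0.34 to 0.999), where 0.281% of genes were called higher. In IP RNA the 4h change of the Stra8 line less that of the Ngn3 line was between -0.09 and 0.34, and none of the 5 values passed the test (adjusted p from 0.699 to 0.995). Here 0% of all genes were called higher, and line and strain cannot be told apart.

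**Figure D2:**
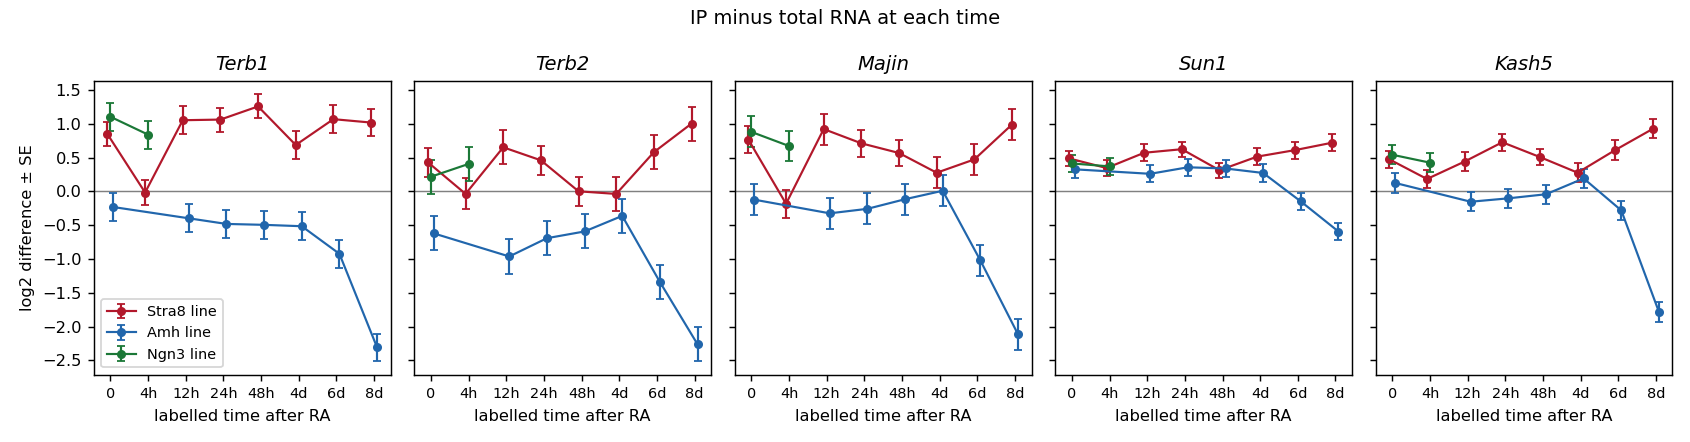
Log2 difference (IP less total RNA, ± SE) of each tethering gene at each labelled time in the Stra8, Amh and Ngn3 lines; the Amh line has no value at 4h. In the Amh line Terb1, Terb2 and Majin were between -2.31 and -2.11 at 8d, while in the Stra8 line they were between 0.99 and 1.02.

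In Sertoli cell IP RNA Terb1, Terb2, Majin and Kash5 were low for most of the course. Terb1 was at 73.4 to 109.9 on the 14 Amh IP arrays of 0 to 6d, below the median of every array (252.6 to 300.5), and at 296 and 435 at 8d. Terb2 was at 112.9 to 181.4 on those 14 arrays and at 213 and 288 at 8d, Majin at 117.9 to 225.7 and then 245 and 374, and Kash5 at 121.2 to 196.2 and then 263 and 301.5. For each of these 4 genes both 8d arrays lay above all earlier ones. Against time 0 the 8d difference was 2.06 ± 0.21 for Terb1 (limma adjusted p = 1.56e-11) and 1.32 ± 0.23 for Majin (adjusted p = 7.56e-06), both called, where 2.93% of genes were called higher. It was 0.89 for Kash5 (adjusted p = 1.92e-06) and 0.83 for Terb2 (adjusted p = 0.0088), below 2-fold. Over the whole Amh IP course, Terb2 passed the 2-fold minimum without the second array of time 0 (1.06) or the first of 8d (1.05). Sun1 ranged from 1581 to 2119 over the 16 Amh IP arrays, with no change at 8d that passed the test (0.19 ± 0.13, adjusted p = 0.303). A signal below every array median was not particular to this fraction. In Stra8 IP RNA it was seen for Terb1 at time 0 and 4h (155 to 219.6) and for Kash5 from 0 to 4d (194 to 249.3).

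The germ cell markers were also followed in the Amh IP fraction. Their mean log2 intensity was 8.72 to 8.87 at time 0, 8.87 to 9.17 at 6d and 9.06 to 9.26 at 8d, and at 8d against time 0 their median difference was 0.51 (all genes 0.01), with 0 of 10 called. Meiotic genes rose in this fraction beside the tethering genes. At 8d 8 of the 8 meiotic cohesin and axis genes, 4 of 5 synapsis genes and 10 of 16 recombination genes were called higher, led by Meiob (2.82), which acts in the repair of meiotic breaks, with Sycp2 (2.48) and Sycp3 (2.36) of the chromosome axis. The part of germ cell RNA in the Amh IP values of the tethering genes was not tested.

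In the Amh line, IP RNA lay below total RNA on average for 4 of the 5 genes, most of all at 8d. Averaged over the 7 times with both fractions, the difference was -0.77 ± 0.08 for Terb1, -0.98 ± 0.10 for Terb2, -0.56 ± 0.09 for Majin, -0.29 ± 0.05 for Kash5 and 0.12 ± 0.05 for Sun1 (limma adjusted p = 0.0287 for Sun1 and at most 4.91e-06 for the others). None was called, where 3.94% of genes were called lower, but Terb2 lay at the 2-fold line. It was called (-1.08) once the Amh arrays with 4h and 4d labels were left out, and then Sun1 was at 0.09 (adjusted p = 0.134). Terb2 was called as well without any 1 of 5 arrays: the second IP array of time 0 or of 8d, or the first total array of 12h or 6d (each -1.01), or of 8d (-1.03). At 8d Terb1 (-2.31 ± 0.21), Terb2 (-2.26), Majin (-2.11) and Kash5 (-1.78) were all called (adjusted p at most 2.12e-10), where 5.76% of genes were called lower. Sun1 was at -0.59 ± 0.13 (adjusted p = 0.00011) at 8d. The means hide a change over the course. From 0 to 4d Kash5 was between -0.15 and 0.19 and Sun1 between 0.26 and 0.36. Terb1 was between -0.52 and -0.23 over these times, and up to 24h it did not pass the test (adjusted p from 0.0601 to 0.42). Terb2 was between -0.96 and -0.36 from 0 to 4d and at -1.34 at 6d. Majin had a mean log2 intensity of 7.25 in IP and 7.24 in total RNA at 4d, and of 7.74 and 8.76 at 6d.

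Germ cell and Sertoli cell IP RNA differed accordingly. Terb1 was higher in Stra8 than in Amh IP RNA by 1.85 ± 0.07 as a mean over the 8 times (3.60-fold, limma adjusted p = 1.23e-28), Terb2 by 1.29 and Majin by 1.24, and these 3 were called, where 7.54% of genes were called higher. Kash5 was higher by 0.78 ± 0.05 and Sun1 by 0.37 ± 0.04, below 2-fold. With the 4h and 4d labels of the Amh line left out, the means were 2.02 for Terb1, 1.5 for Terb2 and for Majin, 0.91 for Kash5 and 0.46 for Sun1, with the same 3 called. The difference was 0.26 to 1.10 at time 0. At 6d it was 3.27 for Terb1, 2.82 for Terb2, 2.71 for Majin, 1.46 for Kash5 and 1.10 for Sun1, all 5 called, where 11% of genes were called higher. At 8d it was smaller for Terb1 (2.77), Terb2 (2.64), Majin (2.27) and Sun1 (0.91) and larger for Kash5 (1.61). The change from time 0 to 8d was itself larger in the Stra8 than in the Amh fraction, by 1.67 ± 0.29 for Terb1 (adjusted p = 8.5e-06), 1.90 ± 0.36 for Terb2 (adjusted p = 2.8e-05), 1.40 ± 0.32 for Majin (adjusted p = 0.000507) and 1.13 ± 0.20 for Kash5 (adjusted p = 1.32e-05). Those 4 were called, where 5.55% of genes were called in that direction, and Sun1 differed by 0.65 ± 0.18 (adjusted p = 0.00362).

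In whole testis RNA of the Amh line Terb1, Terb2, Kash5 and Sun1 made most of their rise between 6d and 8d, and Majin about equal parts before and after 6d. Terb1 was at 99.5 to 137.8 on the 10 Amh total arrays of 0 to 4d, at 181 and 216 at 6d and at 1490 and 2117 at 8d. Majin was at 121.5 to 188.2 on those 10 arrays, at 421 and 449 at 6d and at 928 and 1847 at 8d. Kash5 was at 223 and 219 at 6d and at 782 and 1202 at 8d. In all 3 genes both 8d arrays lay far above those of 6d, and the second 8d array lay well above the first.

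Against time 0, Majin alone was called at 6d in Amh total RNA (1.72 ± 0.23, limma adjusted p = 1.31e-07), where 1.26% of genes were called higher. All 5 were called at 8d, where 3.46% of genes were called higher: Terb1 by 4.14 ± 0.21 (17.6-fold, adjusted p = 1.07e-21), Majin by 3.31, Kash5 by 2.80, Terb2 by 2.47 and Sun1 by 1.11 ± 0.13 (adjusted p = 8.77e-10). By 6d Terb1 had covered 23.5% of its 8d log2 difference, Kash5 23.9%, Terb2 34.2%, Sun1 36.8% and Majin 51.9%. Majin thus had the largest share by 6d here, as it did in Stra8 IP RNA.

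In total RNA the Stra8 line had higher Terb1, Terb2, Majin and Kash5 than the Amh line at 6d, and lower Kash5, Majin and Sun1 at 8d. Averaged over the 7 times shared, Stra8 less Amh total RNA was 0.24 ± 0.07 for Terb1 (limma adjusted p = 0.021) and between -0.02 and 0.16 for the other 4, with none called, where 0.0201% of genes were called higher and 0.01% lower. Without the Amh arrays labelled 4d Terb1 was at 0.17 (adjusted p = 0.145). At 6d it was 1.28 ± 0.21 for Terb1 (adjusted p = 8.55e-05) and 1.22 ± 0.23 for Majin (adjusted p = 0.000608), both called higher in the Stra8 line, where 0.176% of genes were. Terb2 (0.90, adjusted p = 0.0236) and Kash5 (0.57, adjusted p = 0.0113) were higher by less than 2-fold. At 8d it was -1.10 ± 0.14 for Kash5 (adjusted p = 3.58e-07), called lower in the Stra8 line, where 0.1% of genes were. Majin (-0.84, adjusted p = 0.0131) and Sun1 (-0.40, adjusted p = 0.0329) were lower by less than 2-fold, and Terb1 (-0.56, adjusted p = 0.0689) and Terb2 (-0.62, adjusted p = 0.097) did not pass the test. The 2 Amh total arrays of 8d lay apart, at 782 and 1202 for Kash5 and at 928 and 1847 for Majin. These 8d differences were not refitted without either array.

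Tested directly, the step from 6d to 8d was smaller in the Stra8 than in the Amh line for all 5 genes. The gap was -1.83 ± 0.29 for Terb1 (limma adjusted p = 1.61e-05), -1.52 ± 0.36 for Terb2 (adjusted p = 0.00217), -2.06 ± 0.32 for Majin (adjusted p = 1.38e-05), -1.67 ± 0.20 for Kash5 (adjusted p = 9.49e-08) and -0.74 ± 0.18 for Sun1 (adjusted p = 0.00301). The first 4 were called, where 1.38% of genes were called in that direction. Among recombination genes 8 of 16 were called in the same direction, with a median of -1.06 (all genes 0.04), and among cohesin and axis genes 2 of 8 (Rad21l, -2.22, and Hormad2, -1.47). Of the germ cell markers 0 of 10 were called, with a median of -0.04. Of the Leydig cell markers 3 of 4 were called lower, with a median of -1.81, and their mean log2 intensity on the Amh total arrays was 8.78 and 10.30 at 6d and 10.81 and 10.88 at 8d. On the Stra8 total arrays it was 10.92 and 10.92 at 6d and 10.60 and 10.45 at 8d. The part of the Leydig cell shift in the gap was not tested.

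**Figure D3:**
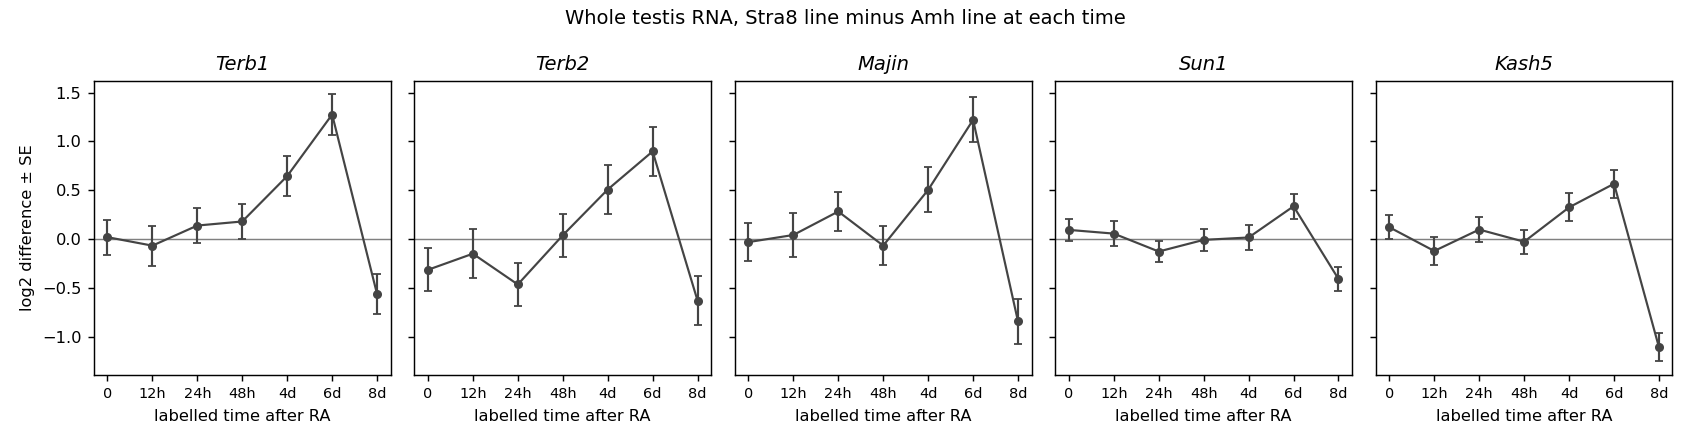
Log2 difference in whole testis RNA (Stra8 line less Amh line, ± SE) of each tethering gene at the labelled times both lines share. Terb1 was at 1.28 at 6d and -0.56 at 8d, and Kash5 at 0.57 and -1.10.

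Ordered over all 35 groups, each gene had its highest means at 8d and 6d. Terb1, Terb2, Majin and Sun1 were highest in Stra8 IP RNA at 8d, and Kash5 in Amh total RNA at 8d. For Terb1 the order after Stra8 IP at 8d was Amh total at 8d, Stra8 total at 8d, Stra8 IP at 6d, Stra8 total at 6d and Amh IP at 8d. Arrays of the 8d groups of Amh total and Stra8 total overlapped, as did those of Stra8 total at 8d and Stra8 IP at 6d. For Majin, Stra8 IP at 8d and 6d and Amh total at 8d came first and overlapped one another in turn. For Kash5 the first 2 groups, Amh total and Stra8 IP at 8d, overlapped, and Stra8 IP at 6d came next, clear of both.

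The genes resembled one another across the 35 group means, and less so without 6d and 8d. Pearson's r between members ran from 0.786 (Terb2 and Sun1) to 0.958 (Terb1 and Kash5). Over the 27 groups without 6d and 8d it ran from 0.160 to 0.880, the lowest again being Terb2 and Sun1 and the highest Terb1 and Majin. Among Terb1, Terb2, Majin and Kash5 it was then 0.592 or more, and for Sun1 with these 4 it was 0.628 or less. The groups share lines, times and arrays processed together, so these values describe the data and carry no p. Among the 3616 genes whose group means spanned at least 2 (log2), those most like Terb1 were Tesmin (0.976), Inca1 (0.969), Dmc1, the meiotic strand exchange protein (0.965), and Zcwpw2 (0.959). Terb2 was closest to Hormad2, an axis protein (0.960), Ugt8a (0.959), Zcwpw2 (0.956) and Cntd1 (0.954). Majin was closest to Prss50 (0.964), Cntd1 (0.961), Ugt8a (0.957) and Nrip3 (0.953). Kash5 was closest to Tesmin (0.970), Styxl1 (0.965), Msh5, a crossover factor (0.964), and Inca1 (0.961). Sun1 was closest to Mdc1 (0.929), Wdr35 (0.921), Synj1 (0.918) and Rpgr (0.905). Its own group means spanned 1.59, less than the minimum set for the genes ranked. No member was among the 4 genes closest to another. In the same ranking the other members stood at places 6 to 50 for Terb1, Terb2, Majin and Kash5, and at 24 to 128 for Sun1.

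The telomere cap, envelope and motor proteins that the complex works with were followed in the same RNA, where 4.38% of all genes were called higher at 8d. In the telomere cap (shelterin), whose proteins coat the chromosome end, 1 of 7 genes was called in Stra8 IP RNA at 8d: Tinf2, the hub of the cap, by 1.15 (limma adjusted p = 9.79e-06), after 1.48 at 6d. The list's median was 0.08, beside 0.00 for all genes. Among 8 other SUN and KASH genes Spag4 alone was called (1.02, adjusted p = 2.36e-07), with a median of 0.07. None of 10 lamina and inner membrane genes (range -0.30 to 0.30, median 0.02) and none of 15 dynein and dynactin genes (range -0.59 to 0.49, median -0.03) was called at 8d. At 6d none of these 10 and 15 was called either.

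CDK2 and its cyclin partners, which are found at meiotic telomeres, were represented by 3 measured genes. Ccne2 was called at 4d (1.53, limma adjusted p = 0.00039), 6d (2.54) and 8d (2.31, adjusted p = 1.05e-07), and Ccne1 at 4d (1.03, adjusted p = 4.67e-05). At 4d no tethering gene was called. The 4d values of Ccne1 and Ccne2 include the Stra8 IP array that stood apart in markers of other cell types. They are not given without it.

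Several meiotic chromosome genes rose beside the complex. Among 8 cohesin and axis genes 6 were called higher at 6d (median 1.21), led by Hormad2 (2.17) and the meiotic cohesin Rec8 (2.14), and 4 at 8d (median 1.08), led by Sycp2 (2.36, limma adjusted p = 7.79e-10) and Hormad2 (2.20, adjusted p = 3.17e-12). Rec8 fell from 6d to 8d (-2.10, adjusted p = 1.13e-09), a step over which no tethering gene was called lower. Of 5 synapsis genes, which build the zipper between paired chromosomes, 1 was called at 6d (Syce1, 1.19) and 1 at 8d (4930447C04Rik, 1.58).

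Recombination genes were called in larger number at 8d than at 6d. Of 16 measured, 8 were called higher at 6d (median 1.00) and 12 at 8d (median 1.99), where all genes had medians of -0.05 and 0.00. Prdm9, which marks the sites of breaks, was up by 2.80 at 6d and 3.19 at 8d, and Dmc1 by 2.21 and 3.12. Meiob rose by 1.68 by 6d and 4.70 by 8d (limma adjusted p = 4.22e-28), and Spo11, which makes the breaks, was called at 8d alone (4.00, adjusted p = 5.1e-23). From 6d to 8d 7 of the 16 were called higher, with Meiob (3.02) and Spo11 (3.01) leading, and 2 lower (Tex11, -1.15, and Rec114, -1.26). Of the 5 measured regulators of meiotic entry, Stra8 (3.56 at 6d, 2.42 at 8d), Meioc (2.93 and 2.81) and Ythdc2 (2.13 and 2.23) were called at both times.

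**Figure D4:**
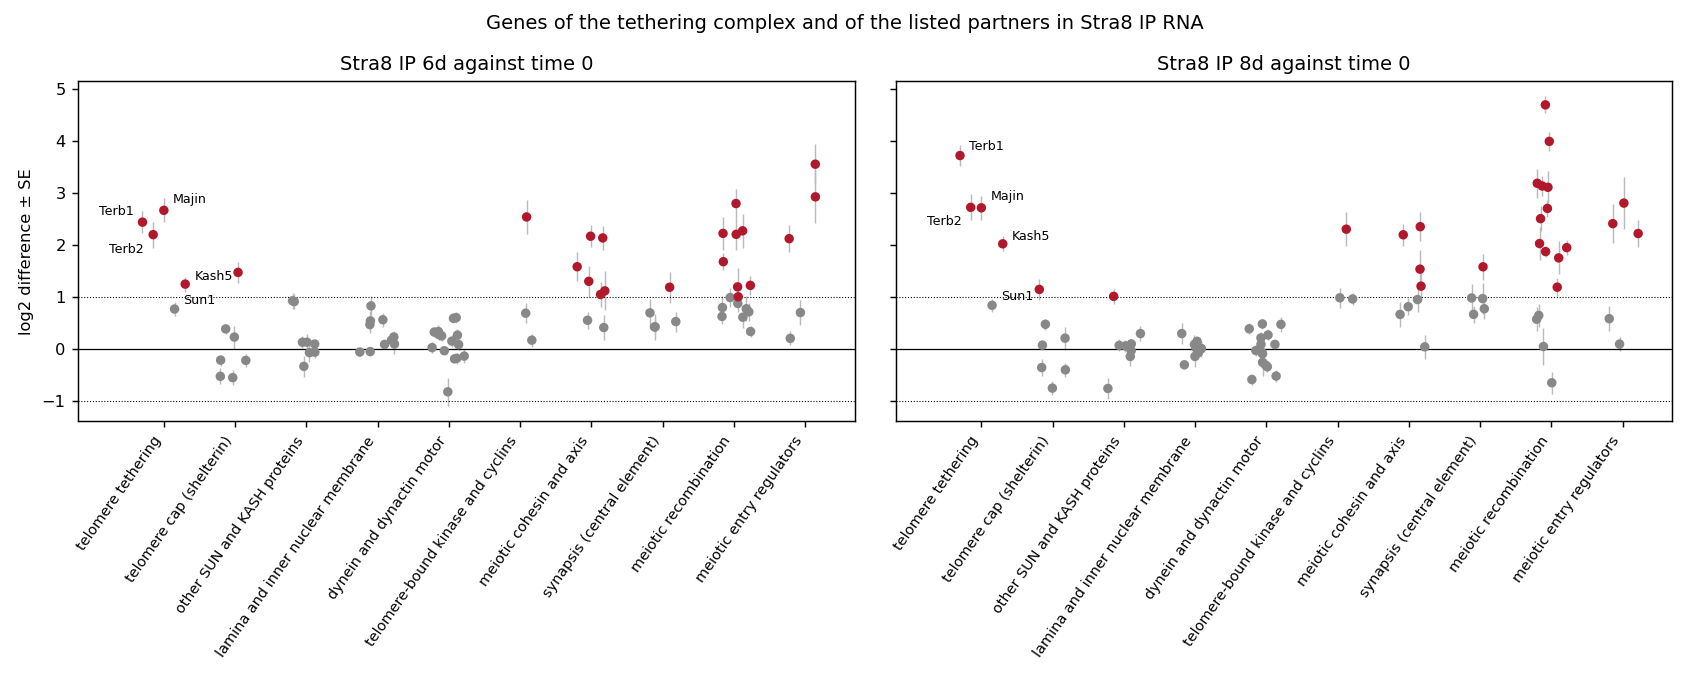
Log2 difference from time 0 (± SE) in Stra8 IP RNA at 6d and 8d for the 5 tethering genes and for each measured gene of 9 lists of partners; red points were called, dotted lines mark 2-fold. The red points include 4 of the 5 tethering genes and, at 8d, 12 of 16 recombination genes, while dynein and lamina genes stay between the dotted lines.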

How the data were processed

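The authors deposited linear intensity values of a 1-colour gene-level Affymetrix array, made with RMA per the submitters' processing notes. Which software and settings RMA ran with is not given in the sources used here. Per the labels' protocols, RNA was purified on RNeasy columns, then amplified (Ovation V2) and biotin-labelled (Encore). Amplification and RMA's background step compress differences between low signals. Arrays have no read depth, so their number limits the precision.

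Values were put on the log2 scale without further scaling. Of 28853 probe sets, 21789 were listed with 1 gene, 1621 with several and 5443 were not listed, and only the first were used (the probe set of highest mean for the 999 genes with more than 1). This left 19938 genes, of which 99.6% of probe sets matched by gene number.

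A single limma 3.58.1 model (R 4.3.3, data.table version 1.17.8) gave each of the 35 groups its own mean over 77 arrays, with 42 residual degrees of freedom, empirical Bayes moderation and an intensity trend, so groups of 2 share 1 estimate of the spread. From it came 86 comparisons and 4 moderated F tests over the time courses, all two-sided, with Benjamini-Hochberg adjustment over all genes. Log2 intensities of arrays of a group correlated between 0.958 and 0.999 (median 0.995). The fit was checked on simulated data.

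The members and the 15 gene lists (119 entries, 113 measured) were chosen with earlier results of these data known. From each list the called genes with the largest difference are named, and for each member the 4 genes of highest Pearson's r among those spanning 2 (log2) over the group means. Whether equal replicate numbers pair samples was judged from how their residuals correlate, 0.1 being the minimum. For IP and total RNA of the Amh line 7 of 7 pairs passed it (0.114 to 0.585). For the Ngn3 line 2 of 2 did (0.249 to 0.259) and for the Stra8 line 4 of 8. Of pairs of times 16 of 107 passed, and of pairs of lines 5 of 22. The reported fit used no pairing, for the Amh and Ngn3 fractions as well, and the replicate block was run only as an alternative. Alternatives were no 2-fold minimum, a filter on the 30% of genes of lowest signal, quantile normalization, median centring, averaged probe sets, no intensity trend, the replicate block, the compared groups alone, fits that leave out the Amh arrays with 4h and 4d labels, the 3 arrays of narrowest signal range or the 3 Stra8 total arrays labelled 4h (the last added after seeing the data), and each array left out in turn.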

Additional observations from a re-analysis of the deposited data

Results flagged for a closer look

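The response of Terb1, Terb2, Majin and Kash5 differed between germ cell and Sertoli cell IP RNA by limma's test of the difference itself. By the same test it differed between the Stra8 and Amh lines in whole testis RNA. In IP RNA, line and tagged cell type cannot be told apart. In IP RNA the 8d change of the Stra8 line exceeded that of the Amh line by 1.67 for Terb1, 1.90 for Terb2, 1.40 for Majin and 1.13 for Kash5. In total RNA the step from 6d to 8d of the Stra8 line fell short of that of the Amh line, the gap being -1.83 for Terb1, -1.52 for Terb2, -2.06 for Majin and -1.67 for Kash5. Both kinds of difference rest on 2 arrays per group and time. Only the difference in IP RNA was recomputed under the alternatives. In the 3 groups of 4 arrays, 1 value lay far from the others: Majin was at 164 on the second Stra8 total array of time 0, against 117, 125 and 119 on the other 3. Its gap to the nearest array was 0.839 of the group's range on the intensity scale, above Dixon's 95% critical value, and 0.814 on the log2 scale, below it. Chance alone puts about 1 in 20 groups past this value.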

How the results depend on the processing

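Of the 110 differences of members recomputed under the alternatives, 35 were called. None of these 35 changed sign or lost its call. Of the 75 that were not called, 20 changed sign under at least 1 alternative. The 110 held no difference in level at a single time between IP and total RNA or between the Stra8 and Amh lines. They also left out the flagged gap between these lines in the step of total RNA. Courses of total RNA and of Amh IP RNA entered only by each gene's largest difference. Calls left out in these ways were not put to the alternatives. The difference between the steps of Stra8 IP RNA was examined apart, by leaving out each of its 6 arrays (an alternative chosen after seeing the data), and there Terb2 lost its call without 4 of them. Leaving out the 2-fold minimum raised the members called to 4 in the Amh IP course, 1 at 4h to 48h and 1 at 4d in Stra8 IP RNA, 5 for Stra8 IP against total, 5 for Amh IP against total, 4 for Ngn3 IP against total, 5 for Stra8 against Amh IP and 1 for Stra8 against Amh total RNA. Median centring called 1 member for Ngn3 IP against total, and leaving out the Amh arrays labelled 4h and 4d called 1 for Amh IP against total.

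With 1 array left out, the members called ranged from 2 to 3 in the Amh IP course and 0 to 2 in Stra8 IP RNA at 4h to 48h. They ranged from 0 to 1 for Amh IP against total and 0 to 1 for Ngn3 IP against total. The count stayed as reported for the other results recomputed. With the replicate number as a block, 4 members stayed called in Stra8 IP RNA at 8d and 0 for Amh IP against total, and the block changed no other call among the results recomputed. Median centring moved the median of all genes by 0.13 in Amh IP against total. With 2 arrays in most groups, differences below about 2-fold in the low signals of Terb1, Terb2, Majin and Kash5 are the least certain.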
